A study of Homo sapiens with 6 samples.

Results

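The receptor tyrosine kinases outside the insulin receptor family are described here in TC-71 cells, a human Ewing sarcoma cell line of wild-type genotype. RNA sequencing compared cells given BEZ235, an inhibitor of PI3K and mTOR kinases, with cells given its solvent dimethyl sulfoxide (DMSO), both for 16 h, in 3 libraries of each group. The sources used here give no dose of BEZ235. Per the labels' protocols the 3 RNAs of a group were biological replicates. All came from 1 cell line, so the spread between libraries is that of cultures of this line. The members were 47 receptors chosen by gene symbol, in 5 groups: 4 ERBB, 4 FGFR, 5 PDGFR class, 12 EPH and 22 receptors of other families. Each of the 47 symbols matched 1 row of the 48114 rows in the deposited table. Of these receptors, 39 reached a normalized count of 10 in at least 3 of the 6 libraries and were tested, and 8 did not.

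Receptor tyrosine kinases span the cell membrane, bind a ligand outside the cell and carry a kinase domain inside it. Ligand binding brings receptors together, they phosphorylate each other, and adaptor proteins that dock on the phosphorylated tails start RAS-ERK and PI3K-AKT-mTOR signalling, the pathway whose kinases BEZ235 inhibits. A few members, among them ERBB3, EPHB6, PTK7, ROR1 and RYK, are known to have little or no kinase activity and to signal through partners. In other cancer cells, blocking PI3K, AKT or mTOR is known to raise transcripts of several receptors, ERBB3 among them, with FOXO factors as a known route. Every value below is a transcript level in a bulk sample, in which fewer expressing cells and less RNA per cell cannot be told apart, and receptor protein was not measured here.

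The 250 bases before the RefSeq start (build GRCh38.p14) are shown for the 3 receptors with the largest rises and the 3 with the largest falls among members that have a promoter entry, passed the test and averaged at least 100 normalized counts in whichever group was higher. Each runs 5′ to 3′ on the gene's strand, and capitals mark the GC box GGGCGG, a motif bound by SP-family factors, on either strand (CCGCCC on the other). RET, AXL and EPHA4 were higher with BEZ235, and ROR1, EPHB3 and MET were lower. They lie at chr10:43076819-43077068 (+), chr19:41218973-41219222 (+), chr2:221574203-221574452 (-), chr1:63773767-63774016 (+), chr3:184561535-184561784 (+) and chr7:116671946-116672195 (+), in the order printed.
RET: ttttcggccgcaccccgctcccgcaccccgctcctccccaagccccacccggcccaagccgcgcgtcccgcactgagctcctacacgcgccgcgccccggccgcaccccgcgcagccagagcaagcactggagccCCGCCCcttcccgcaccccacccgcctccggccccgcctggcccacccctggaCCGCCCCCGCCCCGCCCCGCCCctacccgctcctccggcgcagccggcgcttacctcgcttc
AXL: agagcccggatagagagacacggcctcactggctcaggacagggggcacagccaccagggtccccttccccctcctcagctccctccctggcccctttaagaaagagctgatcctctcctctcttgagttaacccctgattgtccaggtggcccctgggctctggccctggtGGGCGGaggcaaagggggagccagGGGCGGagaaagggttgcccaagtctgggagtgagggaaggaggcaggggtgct
EPHA4: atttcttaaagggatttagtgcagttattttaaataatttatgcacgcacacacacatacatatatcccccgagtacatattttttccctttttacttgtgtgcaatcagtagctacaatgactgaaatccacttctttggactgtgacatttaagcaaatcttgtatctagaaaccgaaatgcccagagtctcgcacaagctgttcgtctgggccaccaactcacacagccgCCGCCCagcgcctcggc
ROR1: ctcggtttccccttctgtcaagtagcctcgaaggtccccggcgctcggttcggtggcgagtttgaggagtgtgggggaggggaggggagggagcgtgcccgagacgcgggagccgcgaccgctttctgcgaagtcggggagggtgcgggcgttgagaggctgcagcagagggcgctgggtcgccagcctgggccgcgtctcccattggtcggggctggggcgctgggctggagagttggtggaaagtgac
EPHB3: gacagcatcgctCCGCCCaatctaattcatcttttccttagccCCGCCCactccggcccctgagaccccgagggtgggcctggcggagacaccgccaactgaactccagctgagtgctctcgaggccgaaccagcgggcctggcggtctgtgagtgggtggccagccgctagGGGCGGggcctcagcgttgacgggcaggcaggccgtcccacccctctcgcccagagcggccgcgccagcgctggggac
MET: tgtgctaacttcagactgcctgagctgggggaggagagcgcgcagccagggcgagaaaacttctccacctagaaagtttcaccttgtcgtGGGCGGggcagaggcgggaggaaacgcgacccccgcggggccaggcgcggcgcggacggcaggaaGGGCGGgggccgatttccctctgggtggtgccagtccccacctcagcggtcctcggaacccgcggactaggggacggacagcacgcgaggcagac

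The RET window held 5 GC boxes and was 79.6% G and C. AXL had 2 boxes at 64.4%, and EPHA4 had 1 box at 43.2%. Among the receptors that were lower, ROR1 had no box at 69.2%, EPHB3 had 3 at 70.0% and MET had 2 at 68.4%. Of the 47 receptors, 44 had a promoter entry (ERBB3, FGFR1 and FLT4 had none), and 33 of the 44 held a GC box, against 42.6% of all 35116 promoters. The box was in 10 of the 13 promoters of receptors that were higher with BEZ235 and in 9 of the 13 of receptors that were lower. The receptor windows had a median G and C content of 68.8%, against 58.0% over all promoters. The FOXO motif GTAAACA, on both strands, was in 1 of the 44 windows (NTRK2, which was not tested) and in 2.98% of all promoters, so none of the windows of called receptors held these letters. TATAAA, on both strands, was in the windows of DDR2 and FLT1 and in 10.7% of all promoters. Such matches describe the letters in these windows and are not binding sites.

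The libraries held 184790722 to 233767211 reads, recovered from the deposited values as given under the processing, and 3 reads equalled 2.50 to 3.47 normalized counts. Libraries of 1 group correlated at 0.982 to 0.987 and libraries of different groups at 0.927 to 0.939 (Pearson's r across genes, on the log2 scale). Reads from the mitochondrial genome made up 0.507 to 0.706% of each BEZ235 library and 2.82 to 3.55% of each DMSO library, and their part in the receptor results was not tested. All 8 Ewing sarcoma markers on the list were detected. Their sum ran from 331679 to 345077 with BEZ235, against 420483 to 462968 with DMSO, and CD99 made up the largest part. Without CD99 the other 7 summed to 126391 to 134511 with BEZ235 and 159523 to 195593 with DMSO. CD99, NR0B1, CCND1 and BCL11B were called lower. NKX2-2 (log2 fold change 1.26) and STEAP1 (0.39) were called higher, and FLI1 and PRKCB were not called. The 9 endothelial markers summed to 15765 to 16924 with BEZ235 and 18377 to 18910.0 with DMSO, with PECAM1, CDH5 and VWF averaging under 10. Without EGFL7 the other 8 summed to 6733 to 7394 with BEZ235 and 7750 to 7969 with DMSO. EGFL7 and ENG were called lower, and ESAM (log2 fold change 1.12) and PLVAP (2.70) were called higher. PLVAP was low and reached 10 in 1 DMSO library. CLDN5 and EMCN were not called. The 8 blood markers summed to 104477 to 109782 with BEZ235 and 108158 to 112391 with DMSO, nearly all of it ITGB2, with CD3E at 0 in every library and PTPRC, CD14 and CD53 averaging under 10. Without ITGB2 they summed to 1478 to 1574 with BEZ235 and 2244 to 3287 with DMSO, with CD68 called lower and LYZ, under 50 in every library, called higher. The 9 epithelial markers summed to 3410 to 3567 with BEZ235 and 20398 to 21318 with DMSO, a gap that came from ESRP1 alone. The other 8 summed to 3381 to 3556 with BEZ235 and 2681 to 2737 with DMSO, with EPCAM, CDH3 and MUC1 called higher, KRT8 called lower and KRT19 at 0. The 9 fibroblast markers summed to 37191 to 39469 with BEZ235 and 47296 to 49907 with DMSO. Without ACTA2 the other 8 summed to 34911 to 37362 with BEZ235 and 32742 to 34094 with DMSO, with COL3A1, DCN and POSTN called higher and COL1A1, LUM and THY1 called lower. The part of these markers in the receptor results was not tested.

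Across the 39 tested receptors, 14 rose with BEZ235 and 15 fell, which is 74.4%, beside 66.3% of all 23923 genes tested (33.1% higher and 33.2% lower; limma on log2(normalized count + 1), Benjamini-Hochberg adjusted p under 0.05). The receptors' share is therefore near that of the whole table, and their median log2 fold change was 0.0154, against -0.0008 for all genes tested. The library values of the groups did not overlap for 29 of the 39 tested receptors (74.4%), near the 70.9% of all genes tested. These 29 were the called receptors. Among the receptors 10 were called with a change of at least 2-fold, 6 higher and 4 lower, whereas 26.3% of all genes tested were, 12.7% higher and 13.6% lower. The set did not move in 1 direction: 2 ERBB receptors rose and 2 fell, 1 FGFR rose and 2 fell, 3 PDGFR class receptors rose and 0 fell, 3 EPH receptors rose and 4 fell, and 5 of the others rose and 7 fell. Of the tested receptors 15 overlap another row with an average of at least 10 normalized counts, and since the sources used here give neither the counting rule nor the strand, their reads may be shared. They are EPHB2 (with MIR4253), EPHA2 (SPEN and SLC25A34), FGFR2 (WDR11 and ATE1), ERBB2 (PGAP3 and MIEN1), EPHB3 (EIF2B5), FGFR3 (LETM1), EPHA5 (EPHA5-AS1), EPHB4 (SLC12A9 and VGF) and DDR1 (TUBB), and, with unnamed rows, ERBB3, TYRO3, ALK, EPHA4, PTK7 and FGFR1.

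**Figure D1:**
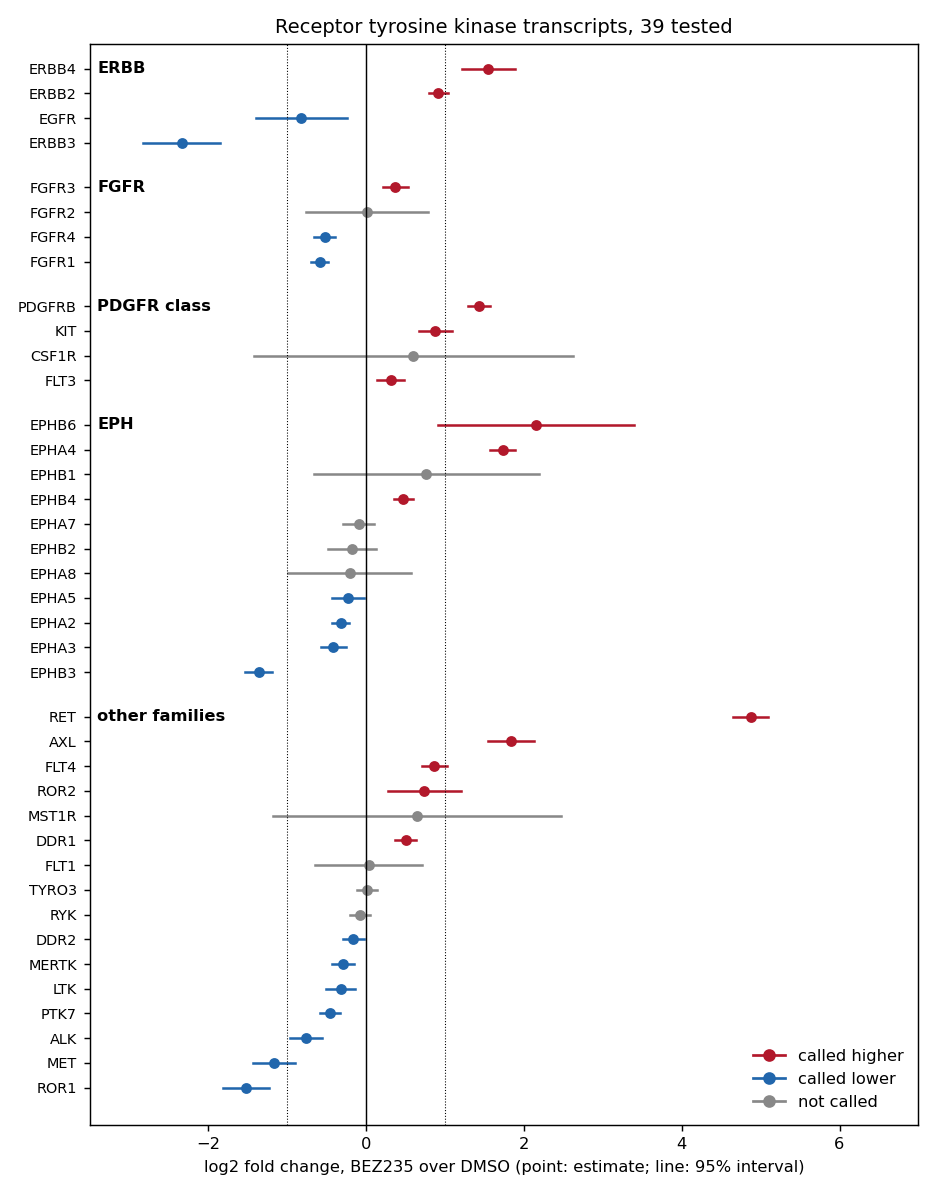
Log2 fold change of each of the 39 tested receptors, BEZ235 over DMSO (x axis), with receptors down the page by family. Points are limma estimates from 3 libraries per group, lines are 95% intervals, red marks called higher, blue called lower and grey not called, and dotted lines mark a 2-fold change. RET stands at 4.88 and the other 28 called receptors lie between -2.33 (ERBB3) and 2.15 (EPHB6).

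RET, the receptor for ligands of the glial cell line-derived neurotrophic factor (GDNF) family, had the largest rise among the receptors. Its row, GSHG0004024, spans chromosome 10 from 43077069 to 43130351 in hg38 and overlaps no other row with an average of at least 10. RET had 2589.6, 2873 and 2672 normalized counts in the BEZ235 libraries, against 91.8, 91.9 and 90.1 in the DMSO libraries. All 3 BEZ235 libraries were high, and the DMSO libraries differed from each other by less than 2 normalized counts. The DMSO libraries together held 282 RET reads, at which counting error alone is larger than that difference. Their closeness is therefore not a measure of how little RET varies. The mean was 2711 ± 146 with BEZ235 and 91.3 ± 1.01 with DMSO (SD, n = 3 each), a log2 fold change of 4.88 (SE 0.10, 95% interval 4.65 to 5.10, limma adjusted p = 1.05e-10), or 29.4-fold. The rise ranked 23 among the rises of all 23923 genes tested. Per kb of exon, the level of RET was 421 ± 22.6 with BEZ235 and 14.2 ± 0.157 with DMSO, which put it at place 15 of the 47 receptors in BEZ235 cells and at place 30 in DMSO cells.

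No tested GDNF family ligand or GFRA co-receptor of RET was called higher. RET binds its ligands through a GFRA co-receptor, and GFRA2, the neurturin co-receptor, had 2942, 2971 and 3036 normalized counts with BEZ235, against 3588, 3689 and 3652 with DMSO. The groups did not overlap, and GFRA2 fell by 0.29 on the log2 scale (limma SE 0.05, adjusted p = 0.000743). GFRA1, the GDNF co-receptor, was at 0, 5.92 and 0 with BEZ235 and at 0 in all DMSO libraries, and GFRA3 was at 6.95, 7.9 and 21.8 with BEZ235 and 3.24, 9.3 and 9.18 with DMSO. GFRA4 had a log2 fold change of -1.29 and was not called (limma adjusted p = 0.353). Neurturin itself (NRTN) had 1042, 1137 and 1055 with BEZ235 and 1774, 1434 and 1712 with DMSO, a log2 fold change of -0.60 (limma SE 0.09, adjusted p = 0.000167). GDNF had 2824, 2739 and 2612 with BEZ235 and 1978, 2787 and 2079 with DMSO. Its groups overlapped through the DMSO library with 2787, and its log2 fold change of 0.27 was not called (limma adjusted p = 0.0522). GDNF overlaps its antisense gene GDNF-AS1, and PSPN overlaps ALKBH7, so both may share reads. The other ligands of the family, PSPN and ARTN, had log2 fold changes of -0.17 and -0.06 and were not called either (limma adjusted p = 0.207 and 0.834).

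**Figure D2:**
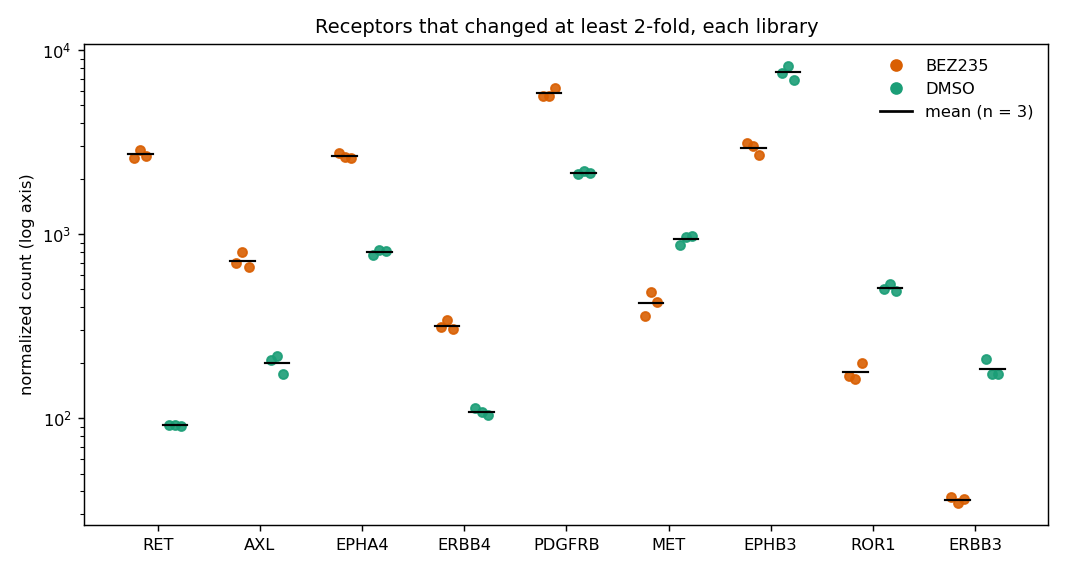
Normalized counts (log axis) of the 9 receptors called with a change of at least 2-fold that averaged at least 100 in whichever group was higher, each library as a point, BEZ235 left of DMSO, with lines at the mean of 3. In none of the 9 do the groups overlap, and RET has both the widest gap and the closest DMSO points, from 90.1 to 91.9. These points lie closer together than counting error at their depth.

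The TAM receptors AXL, TYRO3 and MERTK all bind GAS6, and TYRO3 and MERTK also bind protein S. They are known for clearance of dying cells and, for AXL, for resistance to inhibitors in tumours. Their transcripts moved apart. AXL had 694, 799 and 659.6 normalized counts with BEZ235, against 207, 218 and 174 with DMSO. Every BEZ235 library was more than 3-fold above the highest DMSO library. The mean was 717 ± 72.5 with BEZ235 and 199.9 ± 22.7 with DMSO (SD, n = 3 each), a log2 fold change of 1.84 (limma SE 0.13, adjusted p = 4.22e-07). MERTK had 1742, 1786 and 1736 with BEZ235, against 2077, 2152 and 2222 with DMSO, and fell by 0.29 on the log2 scale (limma SE 0.06, adjusted p = 0.00187). TYRO3 had 4984, 4869.9 and 5092 with BEZ235 and 4838, 4737 and 5183 with DMSO, and was not called (log2 fold change 0.02, 95% interval -0.11 to 0.14). TYRO3 remained the TAM receptor with the most counts per kb in both groups. The ligand gene GAS6 had 332, 339.6 and 341 with BEZ235, against 758, 579 and 747 with DMSO, and fell by 1.03 on the log2 scale (limma SE 0.12, adjusted p = 2.5e-05). GAS6 overlaps its antisense gene GAS6-AS1, with which it may share reads. PROS1, the protein S gene, went the other way, with 5414, 5647 and 5003 with BEZ235, against 4889, 4209 and 4432 with DMSO, and rose by 0.25 on the log2 scale (limma SE 0.07, adjusted p = 0.00936).

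In the ERBB family, ERBB2 and ERBB4 rose and ERBB3 and EGFR fell. ERBB2, which binds no ligand itself and is the preferred partner of the other members, had 8104, 8411 and 7864 normalized counts with BEZ235, against 4447, 4126 and 4324 with DMSO. Its lowest BEZ235 library was far above its highest DMSO library, and the log2 fold change was 0.92 (limma SE 0.06, adjusted p = 1.02e-07). ERBB2 overlaps the rows of PGAP3 (log2 fold change 0.43) and MIEN1 (0.04, not called). ERBB4, a neuregulin receptor with an active kinase, had 312, 339.6 and 304 with BEZ235, against 113, 107 and 103 with DMSO. Its mean was 2.93-fold higher with BEZ235 on the log2(value + 1) scale (log2 fold change 1.55, limma SE 0.15, adjusted p = 4.61e-06).

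ERBB3, the neuregulin receptor that recruits PI3K directly, had the largest fall among the receptors, with 37.1, 34.5 and 36.2 normalized counts with BEZ235, against 208, 175 and 174 with DMSO. The DMSO libraries were all more than 4-fold above the BEZ235 libraries, and the transcript fell by 2.33 on the log2 scale (limma SE 0.22, adjusted p = 3.65e-06). Its row overlaps an unnamed row. EGFR was low in all libraries, with 62.5, 47.4 and 53.5 with BEZ235 and 122, 82.6 and 88.5 with DMSO, and its log2 fold change was -0.82 (limma SE 0.26, adjusted p = 0.0168). The EGFR call was lost without BEZ235 replicate 2 (-0.73, adjusted p = 0.0555) and without DMSO replicate 1 (-0.65, adjusted p = 0.0781), and over all alternatives its adjusted p ran from 0.00934 to 0.0781. Without either of these libraries 1 ERBB receptor in place of 2 was called lower. Summed per kb of exon, the 4 ERBB transcripts reached 1471 ± 49.4 with BEZ235 and 802 ± 32.7 with DMSO (SD, n = 3 each), of which ERBB2 made up 97.6% ± 0.0238 with BEZ235 and 94.7% ± 0.429 with DMSO.

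Most tested ligand genes of the ERBB receptors fell. Of 11 ligand genes 7 were tested, 6 fell and 1 rose, beside 33.2% lower and 33.1% higher among all genes tested. The median log2 fold change was -2.46. NRG1, the ERBB ligand gene with the most counts in both groups, averaged 5976 with BEZ235 and 7439 with DMSO. It fell by 0.31 on the log2 scale (limma SE 0.09, adjusted p = 0.0114), and its row overlaps NRG1-IT1 and an unnamed row. AREG (13.9, 0 and 0) and HBEGF (0, 14.8 and 41.7), also called lower, were near the floor with BEZ235. AREG reached 10 in 1 BEZ235 library and all 3 DMSO libraries, so the DMSO libraries alone took it through the filter. EGF had 303, 321 and 318 normalized counts with BEZ235, against 3011, 2938 and 3046 with DMSO. The DMSO values were all more than 9-fold the BEZ235 values, and EGF fell by 3.25 on the log2 scale (limma SE 0.08, adjusted p = 1.95e-10). TGFA, another EGFR ligand, had 88.0, 80.0 and 97.9 with BEZ235 and 420.2, 581 and 481 with DMSO (log2 fold change -2.46). NRG4, an ERBB4 ligand, had 252, 212 and 236 with BEZ235 and 492, 692 and 580.0 with DMSO (log2 fold change -1.32), and its row overlaps FBXO22. NRG2, a neuregulin for ERBB3 and ERBB4, was the ligand that rose, with 407, 419.6 and 293 with BEZ235, against 185, 212 and 228 with DMSO (log2 fold change 0.83, limma SE 0.17, adjusted p = 0.00125). Among the brakes on these receptors, LRIG1, which promotes ERBB degradation, averaged 5342 ± 81.2 with BEZ235 and 13038 ± 1129.8 with DMSO, and fell by 1.28 on the log2 scale. RNF41, a ubiquitin ligase that degrades ERBB3, averaged 5363 ± 254 with BEZ235 and 11441 ± 482 with DMSO (SD, n = 3 each) and fell by 1.09.

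Among the FGF receptors, which bind FGFs together with heparan sulfate, FGFR1 and FGFR4 fell and FGFR3 rose. FGFR1 had 9190.0, 9342 and 9479 normalized counts with BEZ235, against 13822, 13829 and 14387 with DMSO, a log2 fold change of -0.59 (limma SE 0.05, adjusted p = 1.08e-06). FGFR4 had 3351, 3205 and 3289.9 with BEZ235, against 4824, 4392 and 4951 with DMSO, a log2 fold change of -0.52 (limma SE 0.06, adjusted p = 2.14e-05). In both genes every BEZ235 library was below every DMSO library. FGFR3 had 11592, 12474 and 10641 with BEZ235, against 9329.8, 8109.8 and 9306 with DMSO, and rose by 0.38 on the log2 scale (limma SE 0.07, adjusted p = 0.000952). FGFR3 was the most abundant of the 4 per kb of exon in BEZ235 cells, at 2594 ± 206, whereas its level in DMSO cells was 1999 ± 156, below the 2149.9 ± 49.7 of FGFR1 (SD, n = 3 each). As a share of the family sum per kb, FGFR3 made up 51.2% ± 2.20 with BEZ235 and 35.4% ± 1.18 with DMSO, and FGFR1 28.3% with BEZ235 and 38.2% with DMSO. FGFR2 was low, at 81.1, 65.2 and 34.4 with BEZ235 and 52.9, 50.6 and 65.9 with DMSO, and was not called (log2 fold change 0.02, 95% interval -0.75 to 0.78, limma adjusted p = 0.973).

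Of 18 FGF ligand genes 9 were tested, 4 fell and 0 rose, in all 44.4% called beside 66.3% of all genes (33.2% lower and 33.1% higher). The median log2 fold change was -0.40. FGF21, FGF19 and FGF8 were low with BEZ235, FGF19 at 1.16, 17.8 and 7.25 and FGF8 at 5.79, 25.7 and 57.1. FGF21 reached 10 in 0 BEZ235 libraries and FGF19 in 1, and both did in all 3 DMSO libraries. The DMSO libraries alone thus took these genes through the filter. FGF2, a ligand of several FGF receptors, had 1204, 1160.0 and 1272 normalized counts with BEZ235, against 1904, 2767 and 2295 with DMSO, and fell by 0.92 on the log2 scale (limma SE 0.12, adjusted p = 3.65e-05). It overlaps NUDT6, which lies antisense to it. FGF21, a hormone that acts through FGF receptors with beta-klotho, was at 0, 0.99 and 0 with BEZ235 and at 107, 194 and 181 with DMSO. That is 1 read in the BEZ235 libraries together and 504 in the DMSO libraries, a DMSO over BEZ235 ratio of 486 with a counting interval of 86.8 to 1.92e+04. The FGF21 row overlaps that of FTL, which averaged far above it.

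In the PDGFR class, the 3 receptors called all rose. PDGFRB, the receptor of PDGF-B and PDGF-D known from pericytes and mesenchymal cells, had 5639, 5621 and 6242 normalized counts with BEZ235, against 2118, 2216 and 2137 with DMSO. The mean was 5834 ± 353 with BEZ235 and 2157 ± 51.6 with DMSO (SD, n = 3 each), a log2 fold change of 1.43 (limma SE 0.06, adjusted p = 9.35e-09). KIT, the stem cell factor receptor, had 1477, 1332 and 1248 with BEZ235, against 779.9, 739 and 680.2 with DMSO, and its log2 fold change was 0.88 (limma SE 0.09, adjusted p = 8.6e-06). The groups were well separated for both receptors. FLT3, known from blood progenitors, had 1158, 1222 and 1191 with BEZ235, against 933, 964 and 976 with DMSO, a log2 fold change of 0.31 (limma SE 0.07, adjusted p = 0.00344). The FLT3 call was lost under total-count scaling (0.22, adjusted p = 0.0509, range over all alternatives 0.00111 to 0.0509). CSF1R had 23.2, 5.92 and 25.4 with BEZ235 and 25.9, 16.5 and 1.67 with DMSO and was not called (limma adjusted p = 0.58). PDGFRA, at 13.9, 31.6 and 7.25 with BEZ235 and 3.24, 7.23 and 5.01 with DMSO, stayed under the filter. The class summed to 1598 ± 45.7 per kb with BEZ235 and 772 ± 12.9 with DMSO, the largest ratio of the 5 groups at 2.07, and PDGFRB was 63.8% ± 2.05 of it with BEZ235 and 48.9% ± 0.681 with DMSO.

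All 8 ligand genes of the class were tested, 3 rose and 2 fell, near the 33.1% and 33.2% of all genes, and the median log2 fold change was -0.03. CSF1, the ligand of CSF1R, had 544, 542 and 618 with BEZ235, against 214, 239 and 237 with DMSO (log2 fold change 1.30, limma SE 0.12, adjusted p = 2.95e-06). PDGFD, which activates PDGFRB, had 1347, 1183 and 1318 with BEZ235, against 599.5, 789 and 566 with DMSO (log2 fold change 0.99, limma SE 0.12, adjusted p = 3.33e-05). Every BEZ235 library was above every DMSO library for both. PDGFB, the other PDGFRB ligand gene, was called lower, with 5.79, 10.9 and 9.97 with BEZ235, against 84.3, 74.4 and 79.3 with DMSO (log2 fold change -3.06, limma SE 0.40, adjusted p = 4.68e-05). PDGFB reached 10 in 1 BEZ235 library, so the DMSO libraries alone took it through the filter. PDGFC, a ligand of PDGFRA, averaged 3012 with BEZ235 and 2329 with DMSO, a log2 fold change of 0.38. KITLG, the stem cell factor gene, moved the other way from its receptor KIT, with 17.4, 16.8 and 23.6 with BEZ235 and 129, 173 and 168 with DMSO, and fell by 2.96 on the log2 scale (limma SE 0.29, adjusted p = 4.37e-06).

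**Figure D3:**
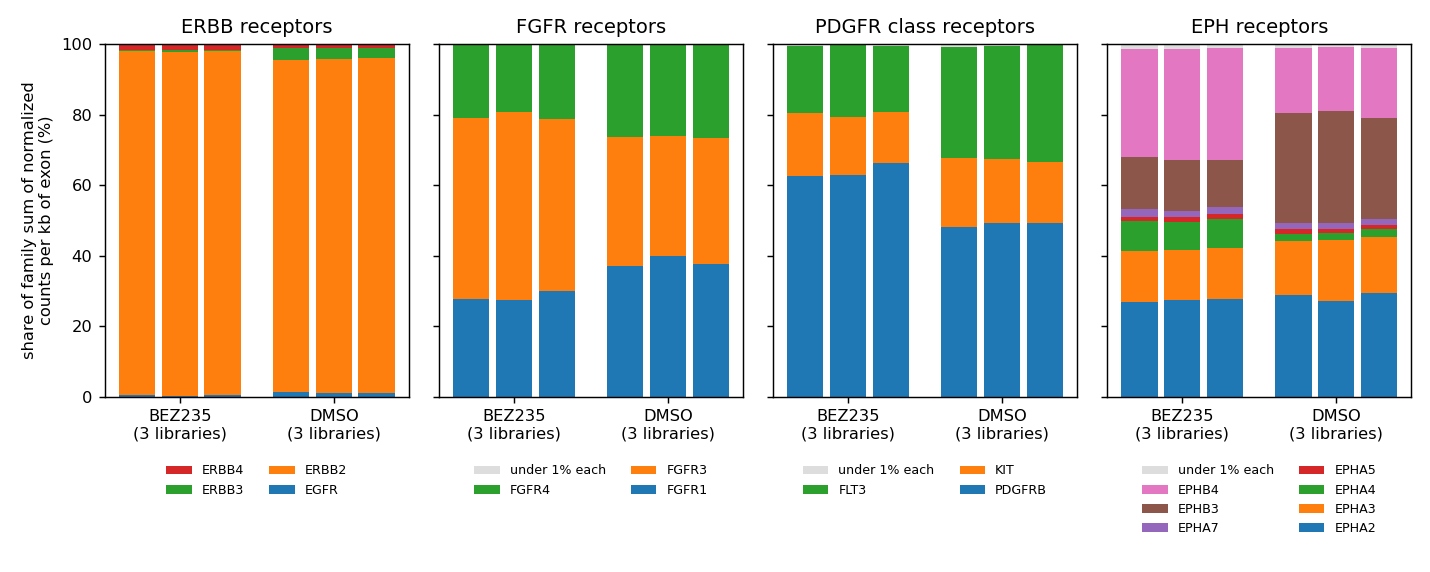
Share (%) of each family's sum of normalized counts per kb of exon held by each receptor, 1 bar per library, the 3 BEZ235 libraries left of the 3 DMSO libraries in each panel. ERBB2 fills most of the ERBB bars in both groups, FGFR3 and PDGFRB hold more of their bars with BEZ235 (51.2% and 63.8%) than with DMSO (35.4% and 48.9%), and EPHB3 holds less (14.2% with BEZ235, 30.5% with DMSO).

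The EPH receptors, which bind membrane-held ephrins on neighbouring cells and are known for cell repulsion and sorting, went in both directions. EPHA4, a receptor of both ephrin classes, had 2749, 2638 and 2584 normalized counts with BEZ235, against 772, 819 and 806 with DMSO. Its mean was 2657 ± 84.4 with BEZ235 and 799 ± 24.2 with DMSO (SD, n = 3 each), a log2 fold change of 1.73 (limma SE 0.07, adjusted p = 5.44e-09). EPHB3, an ephrin-B receptor, had 3135, 3010.0 and 2701 with BEZ235, against 7546, 8210.0 and 6909 with DMSO. The lowest DMSO library was more than 2-fold above the highest BEZ235 library, and EPHB3 fell by 1.36 on the log2 scale (limma SE 0.08, adjusted p = 7.08e-08). EPHA4 overlaps an unnamed row and EPHB3 the row of EIF2B5. EPHB4, the receptor of ephrin-B2, had 6576, 6849 and 6561 with BEZ235, against 4618, 4842 and 4929 with DMSO, and its log2 fold change was 0.47 (limma SE 0.05, adjusted p = 1.4e-05). Its row overlaps SLC12A9, which averaged 3105 with BEZ235 and 1571 with DMSO (log2 fold change 0.98), and the part of shared reads was not tested.

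The other EPH receptors that fell were EPHA2, EPHA3 and EPHA5, each by less than EPHB3. EPHA2, a receptor of ephrin-A1, had 5239, 5389 and 5221 normalized counts with BEZ235, against 6554, 6601 and 6617 with DMSO, a log2 fold change of -0.32 (limma SE 0.05, adjusted p = 0.000172). EPHA3, an ephrin-A receptor, had 4835, 4789 and 4608 with BEZ235, against 5803, 7030.4 and 6158 with DMSO, a log2 fold change of -0.41 (limma SE 0.07, adjusted p = 0.000397). Neither gene's groups overlapped. EPHA5, known from the nervous system, had 564, 603 and 601 with BEZ235, against 703, 700.4 and 662 with DMSO, a log2 fold change of -0.22 that only just passed the threshold (limma adjusted p = 0.0494). Its antisense gene EPHA5-AS1, whose row overlaps it, had -0.68. The EPHA5 call was lost in 13 of 17 alternatives, over which its adjusted p ran from 0.0177 to 0.146. EPHB6 was low, with 64.9, 57.3 and 28.1 with BEZ235 and 19.4, 9.3 and 5.01 with DMSO. EPHB6 reached 10 in 1 DMSO library, so the BEZ235 libraries alone took it through the filter. Its log2 fold change of 2.15 (limma SE 0.56, adjusted p = 0.00579) was 1.497 with a pseudocount of 10 and ran from 1.73 to 2.61 when single libraries were left out.

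No call was made for EPHA7, EPHA8, EPHB1 and EPHB2, whose groups all overlapped. EPHA7, an ephrin-A receptor, had 766, 706 and 704 normalized counts with BEZ235 and 742, 811 and 760.3 with DMSO (log2 fold change -0.09, 95% interval -0.29 to 0.11). EPHB2, an ephrin-B receptor, had 339, 479 and 399.6 with BEZ235 and 477, 432 and 458 with DMSO (-0.18, 95% interval -0.48 to 0.12). Both intervals exclude a change of 2-fold. EPHA8 was low, at 88.0, 51.3 and 49.8 with BEZ235 and 51.9, 61.0 and 110.2 with DMSO, as was EPHB1, at 9.27, 24.7 and 38.0 with BEZ235 and 16.2, 6.2 and 15.9 with DMSO. EPHA1 was at 15.1, 11.8 and 0 with BEZ235 and 3.24, 0 and 0 with DMSO and was not tested. Per kb, EPHB4 was the most abundant EPH transcript in BEZ235 cells (1531 ± 37.3, against 1102 ± 36.9 in DMSO cells), while in DMSO cells EPHB3 was (696 ± 52.8 in BEZ235 cells, against 1784 ± 154 in DMSO cells; SD, n = 3 each). The DMSO level of EPHB3 lay within its spread of that of EPHA2, at 1663 ± 8.34 per kb. EPHB4 made up 31.3% ± 0.604 of the EPH sum with BEZ235 and 18.9% ± 0.870 with DMSO, and EPHB3 14.2% ± 0.788 with BEZ235 and 30.5% ± 1.66 with DMSO.

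All 8 ephrin genes were tested, and 5 rose and 0 fell, in all 62.5% called beside 66.3% of all genes (33.1% higher and 33.2% lower), and the median log2 fold change was 0.35. EFNB3, an ephrin-B, had 7633, 8076 and 7320.0 normalized counts with BEZ235, against 2672, 2390.3 and 2661 with DMSO. All BEZ235 libraries were high, and the log2 fold change was 1.58 (limma SE 0.07, adjusted p = 6.58e-09). EFNA1, a ligand of EPHA2, had 6083, 6669 and 5834 with BEZ235, against 3767, 2953 and 3409 with DMSO (log2 fold change 0.88, limma SE 0.09, adjusted p = 5.36e-06). EFNA4, an ephrin-A, had a log2 fold change of 0.46 (limma SE 0.10, adjusted p = 0.0014).

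MET is the receptor of hepatocyte growth factor. MET had 357, 483 and 426 normalized counts with BEZ235, against 877, 967 and 973 with DMSO. Its mean was 422 ± 63.1 with BEZ235 and 939 ± 53.7 with DMSO (SD, n = 3 each), a log2 fold change of -1.16 (limma SE 0.12, adjusted p = 7.64e-06). HGF, the MET ligand gene, was at 0, 0 and 2.72 with BEZ235 and at 0 in all DMSO libraries. MST1R, the related receptor of macrophage-stimulating protein, was at 12.7, 17.8 and 3.62 with BEZ235 and 5.4, 3.1 and 10.8 with DMSO and was not called (limma adjusted p = 0.51).

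Of the receptors and co-receptors of WNT ligands, ROR1 and PTK7 fell, ROR2 rose and RYK was not called. ROR1, known as a surface protein of embryonic and tumour cells, had 170.2, 164 and 200.2 normalized counts with BEZ235, against 500.1, 536 and 492 with DMSO, and fell by 1.51 on the log2 scale (limma SE 0.13, adjusted p = 1.87e-06). Its paralogue ROR2 had 419, 508 and 419.5 with BEZ235, against 364, 189 and 277 with DMSO, and rose by 0.74 (limma SE 0.21, adjusted p = 0.00911). The DMSO libraries of ROR2 were spread widely: its log2 fold change was 0.96 without DMSO replicate 1 and 0.49 without DMSO replicate 2, and its call was lost in limma without the trend (adjusted p = 0.0506, range over all alternatives 0.000528 to 0.0506). PTK7 had 20217, 20229 and 19067 with BEZ235, against 28396, 25252 and 27996 with DMSO, and fell by 0.45 (limma SE 0.06, adjusted p = 3.83e-05). PTK7 had the highest level per kb of all 47 receptors in both groups, at 3401.5 ± 114 with BEZ235 and 4666 ± 293 with DMSO (SD, n = 3 each). RYK had 5449, 5063 and 4976 with BEZ235 and 5462, 5579 and 5231 with DMSO and was not called (log2 fold change -0.07, 95% interval -0.20 to 0.06, limma adjusted p = 0.293). It was called lower under total-count scaling (-0.17, adjusted p = 0.0394, range over all alternatives 0.0394 to 0.723), which moved the median of all genes to -0.10. WNT5A, a ligand of ROR1, ROR2 and RYK, averaged 672 with BEZ235 and 1583 with DMSO and fell by 1.23 on the log2 scale.

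The collagen receptors DDR1 and DDR2 moved in opposite directions. DDR1, known mainly from epithelia, had 6600.3, 6714 and 5950.0 normalized counts with BEZ235, against 4551, 4372 and 4641 with DMSO, a log2 fold change of 0.50 (limma SE 0.06, adjusted p = 2.66e-05). The DDR1 row overlaps that of TUBB, which averaged 1.95e+06 with BEZ235 and 1.46e+06 with DMSO and had a log2 fold change of 0.42 in the same direction. The part of shared reads in the DDR1 value was not tested. DDR2, known mainly from mesenchymal cells, had 7127, 7207 and 6755 with BEZ235, against 7486, 8409 and 7693 with DMSO, a log2 fold change of -0.16 (limma SE 0.06, adjusted p = 0.0336). The DDR2 groups were close together, and its call was lost in 7 of 17 alternatives, over which the adjusted p ran from 0.00984 to 0.105.

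ALK and its relative LTK, receptors of ALKAL ligands, both fell. ALK, which is known from neuroblastoma, had 576, 575 and 607 normalized counts with BEZ235, against 907, 1069 and 998 with DMSO, a log2 fold change of -0.76 (limma SE 0.09, adjusted p = 2.95e-05). LTK had 1357, 1232 and 1199.6 with BEZ235, against 1696, 1469 and 1559 with DMSO, a log2 fold change of -0.32 (limma SE 0.08, adjusted p = 0.00589).

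Of the receptors of vascular endothelial growth factors (VEGFs) and angiopoietins, FLT4 was called. FLT4, the VEGF-C and VEGF-D receptor of lymphatic vessels, had 1769.7, 1871 and 1809 normalized counts with BEZ235, against 978, 997 and 1009 with DMSO, a log2 fold change of 0.87 (limma SE 0.07, adjusted p = 9.33e-07). FLT1, a receptor of VEGF-A, VEGF-B and PGF, had 71.8, 61.2 and 48.0 with BEZ235 and 43.2, 75.4 and 60.1 with DMSO and was not called (limma adjusted p = 0.927). The 3 receptors KDR, TEK and TIE1, known from endothelial cells, stayed between 0 and 19.9 in every library and were not tested. FLT4's ligand gene VEGFC had 51.0, 47.4 and 32.6 with BEZ235, against 180.4, 134 and 159 with DMSO, and fell by 1.85 on the log2 scale (limma SE 0.26, adjusted p = 7.38e-05). VEGFD, its other ligand gene, had 20.9, 33.6 and 25.4 with BEZ235 and 56.2, 21.7 and 37.6 with DMSO, and was not called (limma adjusted p = 0.39). The VEGFD row overlaps that of PIR, which averaged far above it, so VEGFD may share reads with PIR. The ligands of the remaining receptors moved in both directions. VEGFA, the main angiogenic factor, had 19460.5, 18223 and 16626 with BEZ235, against 74140.2, 86266 and 79709 with DMSO, and fell by 2.14 on the log2 scale (limma SE 0.07, adjusted p = 1.61e-09). PGF, an FLT1 ligand, had 41286, 50292 and 31043 with BEZ235, against 6576, 6704 and 5907 with DMSO, and rose by 2.65 (limma SE 0.14, adjusted p = 3.24e-08). VEGFB, also an FLT1 ligand, averaged 10010.0 with BEZ235 and 6582 with DMSO (log2 fold change 0.60), and ANGPT1, a TEK ligand, 176 ± 2.72 with BEZ235 and 39.5 ± 13.3 with DMSO (log2 fold change 2.17). Over the 22 ligands of other receptors, GDNF family and WNT5A included, 19 were tested, 7 rose and 5 fell, beside 33.1% and 33.2% of all genes. ANGPT4, counted among those that rose, was low, at 20.9, 19.7 and 16.3 with BEZ235 and 3.24, 3.1 and 7.51 with DMSO. It reached 10 in 0 DMSO libraries, so the BEZ235 libraries alone took it through the filter.

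The neurotrophin receptors NTRK2 and NTRK3 and the kinase ROS1 were not tested. NTRK2 was at 0, 11.8 and 2.72 with BEZ235 and 2.16, 18.6 and 1.67 with DMSO. NTRK3 was at 9.27, 6.91 and 0 with BEZ235 and 0, 6.2 and 17.5 with DMSO, and ROS1 at 0, 8.88 and 7.25 with BEZ235 and 13.0, 0 and 0 with DMSO. In each of these 3 genes the highest and lowest libraries of the groups overlapped, and differences at this depth were not detectable.

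Summed over all 47 receptors, the level per kb of exon was 22566 ± 586 with BEZ235 and 23363 ± 315 with DMSO (SD, n = 3 each), a ratio of 0.966 with overlapping groups. The family sums did not overlap: they were 1.83 times (ERBB), 2.07 times (PDGFR class), 0.898 times (FGFR), 0.837 times (EPH) and 0.926 times (others) their DMSO level. The order of single receptors per kb changed below PTK7. With BEZ235 it ran PTK7, FGFR3, RYK (1754 ± 85.5), EPHB4, ERBB2 (1435 ± 48.4) and FGFR1 (1432.5 ± 22.2). ERBB2 and FGFR1, neighbours in that order, differed by less than their spread. With DMSO it ran PTK7, FGFR1, FGFR3, RYK (1843 ± 60.1), EPHB3 and EPHA2. Among these, FGFR1 and RYK each lay within the spread of FGFR3, and RYK and EPHA2 each within that of EPHB3. Neighbours from FGFR1 to EPHA2 in this order were therefore not clearly apart. ERBB2 was at place 5 with BEZ235 and at place 12 with DMSO, and PDGFRB at place 10 with BEZ235 and at place 16 with DMSO.

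Across 8 lists of ligands, co-receptors, adaptors and receptor brakes with 123 genes, 104 were tested, 24 rose and 43 fell, and the median log2 fold change was -0.15, against -0.0008 for all genes tested. The share called, 64.4%, is near the 66.3% of the whole table. Of 15 tested co-receptors 10 fell and 0 rose, beside 33.2% and 33.1% of all genes, with a median of -0.94. They included the syndecans, heparan sulfate carriers that present FGFs: SDC4 averaged 2403 ± 16.0 with BEZ235 and 5344 ± 336 with DMSO (log2 fold change -1.15), SDC3 605 with BEZ235 and 1622 with DMSO (-1.42), and SDC1 174 with BEZ235 and 676 with DMSO (-1.95).

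Among 21 adaptors, which link active receptors to RAS and PI3K, 7 rose and 8 fell, near the 33.1% and 33.2% of all genes, with a median of 0.07. SHC1, a docking adaptor, had 67461, 68358 and 64233 normalized counts with BEZ235, against 36926, 34814 and 37248 with DMSO, a log2 fold change of 0.88 (limma SE 0.05, adjusted p = 1.02e-07). SHC2 (log2 fold change 0.90) and the PI3K-recruiting adaptor GAB1 (0.64) also rose. GRB10, an adaptor known as an mTORC1 substrate that restrains receptor signalling, had 2982, 2926 and 2764 with BEZ235, against 7801, 10769.7 and 9093 with DMSO, and fell by 1.66 on the log2 scale (limma SE 0.10, adjusted p = 9.25e-08). GRB2, which brings SOS to receptors, fell by 0.68, and PTPN11, the SHP2 phosphatase, fell by 0.79.

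Of 17 tested brakes 8 fell and 1 rose, in all 52.9% called beside 66.3% of all genes (33.2% lower and 33.1% higher), with a median of -0.25. PTPN1, a phosphatase that acts on several receptors, had 3313, 3321 and 3054 normalized counts with BEZ235, against 8230.1, 8609 and 8268 with DMSO, and fell by 1.37 on the log2 scale (limma SE 0.06, adjusted p = 6.37e-09). Its relative PTPN2 was the brake that rose, averaging 3340.3 with BEZ235 and 2406 with DMSO (log2 fold change 0.47, limma SE 0.06, adjusted p = 3.59e-05). Of these list genes, SDC1, GAB1, GRB2, PTPN1, PTPN2, LRIG1, EFNA4, VEGFB, PGF, PDGFC and NRTN overlap another expressed row and may share reads with it. All 32 list genes named by rule kept their direction and call under every alternative. They were picked for the smallest adjusted p in these same data, so this does not bear on the lists as a whole. The other list genes were not followed under the alternatives.

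**Figure D4:**
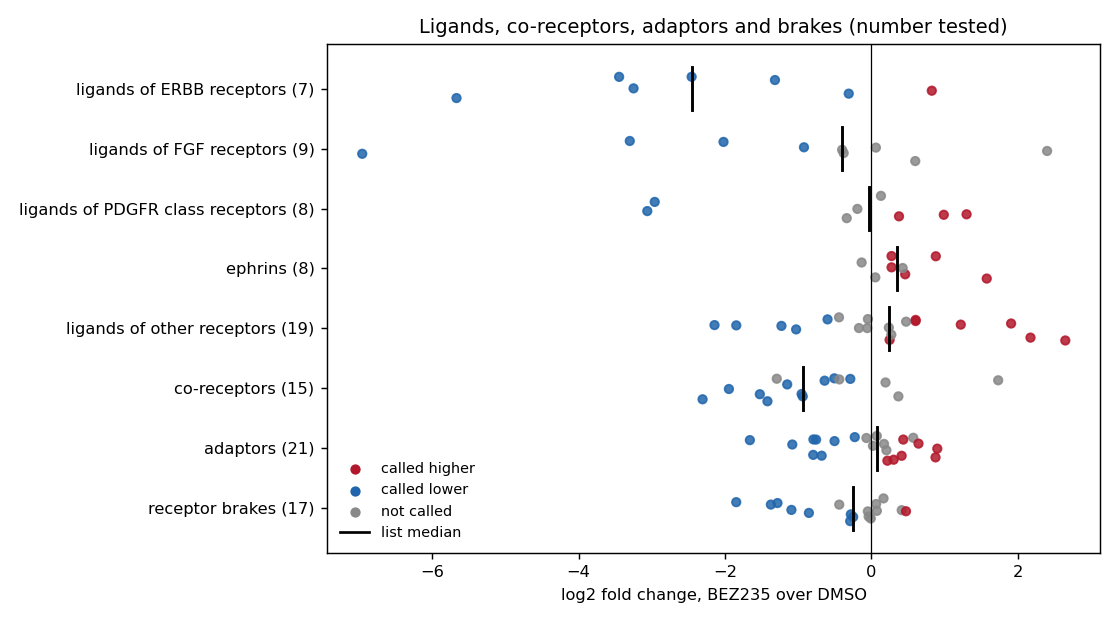
Log2 fold change, BEZ235 over DMSO (x axis), of each tested gene in 8 lists around the receptors (down the page, number tested in parentheses), red called higher, blue called lower, grey not called, with the list median as a bar. ERBB ligands (median -2.46) and co-receptors (-0.94) lie mostly to the left of 0, and the ephrins (0.35) mostly to the right.

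Genes next to the receptors that changed most went in both directions. The nearest tested named genes of RET were BMS1, 242132 bases away with a log2 fold change of 0.76, and CSGALNACT2, 8094 bases away at -1.02. Beside AXL, HNRNPUL1 lay 730 bases away at 0.54 and CYP2S1 on the other side had -1.32. PDGFRB lies 460 bases from CSF1R, whose 0.60 was not called. The neighbours of ERBB3, RPS26 at 0.58 and PA2G4 at 0.45, were higher with BEZ235 where ERBB3 fell, and beside EPHB3 CHRD fell by 1.66 and MAGEF1 by 0.37 on the log2 scale.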

How the data were processed

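RNA from 3 BEZ235 and 3 DMSO cultures of TC-71 cells was sequenced. The authors deposited 1 table of normalized gene counts, a never negative signal with FASTDB annotation and hg38 coordinates per the file headers. Per the submitters' processing notes STAR 2.4.0, DESeq, Picard, SAMtools, FastQC and hg38 were used. The sources used here state neither strand nor counting rule. The control columns were matched to the DMSO samples by number. The receptors and lists were chosen with earlier results of these data known.

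Each deposited column was made of whole multiples of 1 step (0.835 to 1.16 normalized counts), and 100% of values, divided by it, came out as whole reads within 0.01, which were used for depth and for the count tests. Genes with at least 10 normalized counts in at least 3 of 6 libraries (23923) were tested with limma 3.58.1 in R 4.3.3, with a mean-variance trend, on log2(normalized count + 1), two-sided, with Benjamini-Hochberg adjustment over all of them and a threshold of 0.05. This scale understates changes of low genes. On the recovered reads edgeR 4.0.16 (quasi-likelihood) called 15744 genes and DESeq2 1.42.0 called 15706, against 15863. An exact permutation test of 3 libraries against 3 cannot go below 0.1 and was not used. No pair of libraries agreed within sampling noise.

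Levels per kb divide the normalized count by the union of exons of basic protein-coding transcripts in GENCODE release 29. Counting intervals (95%) and the limit of 3 reads cover counting error only. Every receptor is accounted for: those called and averaging at least 100 in whichever group was higher with every library, and per list up to 3 risers and 3 fallers of that level with the smallest adjusted p. PROS1, PDGFB, NRG1, AREG, HBEGF, FGF8, FGF19, VEGFC, VEGFD, ANGPT4 and the RET partners were added after their values were seen. The model fit was tested on simulated data. Alternatives changed the scaling, pseudocount, filter, tool and replicate block, or left out each library.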

Additional observations from a re-analysis of the deposited data

How the results depend on the processing

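Across 17 alternatives 24 of the 29 called receptors kept their direction and call in each that gave a value, and no called receptor reversed. The exceptions were EPHA5, DDR2, EGFR, FLT3 and ROR2, with the values given in the report, and RYK was called under total-count scaling alone. The median log2 fold change of receptors, 0.0154, ran from -0.0978 to 0.0572 when single libraries were left out, the lowest without BEZ235 replicate 1, and was -0.0796 under total-count scaling and -0.0886 with a filter at 50. ERBB receptors called lower numbered 1 to 2 with single libraries left out, and receptors of all families called lower 12 to 13, against 15. With a filter at 50, EPHB6, CSF1R, EPHB1 and MST1R were not tested and have no value there. The cause of these shifts was not tested. Low transcripts such as EPHB6, CSF1R and MST1R had few reads, which limits what their values can show.

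No shared deviation was seen between same-numbered libraries, with correlations of -0.0379, 0.0231 and 0.0435. These values cannot show whether same-numbered cultures were handled together. With a replicate block 14 receptors were higher and 14 lower, 15917 genes were called, and EPHA5 lost its call (-0.22, limma adjusted p = 0.0741).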
